A study of Mus musculus with 12 samples.

Results

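Expression of lipoprotein lipases, of proteins that inhibit or hold them, and of lipoprotein receptors was followed in the livers of C57BL/6 mice. The members are given by gene name, and were chosen with earlier results of these data known. Within a gene, the probe set was taken by its mean signal over all arrays. Of the 8 listed, 7 had a probe set (Lpl, Lipg, Lipa, Angptl4, Gpihbp1, Vldlr and Lrp1) and 1 was not analysed here. They are 7 of the 18193 genes that a probe set of the array named alone, and their 19 probe sets are among 45101. Mice were 8 weeks old at the start and were fed for 8 weeks, with 4 mice and 4 arrays per group, and the labels give the livers as fasting. The first group received normal chow (NC). The second received a high fat diet deficient in methionine and choline (MCD+HF), used to model nonalcoholic steatohepatitis. The third ate the MCD+HF diet with metformin, an antidiabetic drug, added at 0.1% (MCD+HF+Met). The labels name no altered gene in any group, and the sources used here do not give the sex. The MCD+HF diet differs from chow in methionine, choline and fat at once, so the parts of these in a difference from NC cannot be told apart.

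The lipases of this family split lipids carried by lipoproteins, the particles that move fat and cholesterol in blood. LPL, lipoprotein lipase, releases fatty acids from triglyceride-rich particles on the wall of capillaries, where GPIHBP1 holds it, and ANGPTL4 inactivates it. LIPG, endothelial lipase, acts mainly on phospholipids of high density lipoproteins, while LIPA, lysosomal acid lipase, splits cholesteryl esters and triglycerides after uptake. VLDLR and LRP1 bind triglyceride-rich particles and their remnants. Adult hepatocytes normally make little LPL, and macrophages, fat cells and muscle make much of it.

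The arrays carry probe sets, groups of short probes with 1 summary signal each, on a linear scale that the authors set to an average of 100 per array. A gene is represented here by its brightest probe set, with cross-hybridising ones (ending in _x_at) used only where there was no other. Differences were taken in log2(signal + 10), so those of dim probe sets are understated. A limma model of all 3 groups was fitted to the 22832 probe sets whose signal averaged 20 or more, and a change was called at an adjusted p under 0.05. A signal under 20 is called dim. All 7 genes passed this filter, but Vldlr, with a mean of 26.3, passed it only through the mice on the MCD+HF diets. The p-values set differences between group means against the spread between mice within groups, and precision is limited by the number of arrays.

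The livers carried the transcripts of liver cells. Hepatocyte markers had summed signals of 121090 to 142680 on chow, 62746 to 77804 on the diet and 69292 to 83886 with metformin. On the diet 9 of 11 were lower than on chow (median log2 change -0.92), against 18.4% of all probe sets. With quantile normalization, which forces equal distributions on the arrays, 3 were lower and 2 higher (median 0.02), so the levels of very bright transcripts on the diet depend on the scaling. Of the fat cell markers, Adipoq had mean signals of 5.6, 2.5 and 3.3 in the 3 groups and Retn of 4.18, 4.85 and 3.68, all dim. Lep was dim too, whereas Lipe had 67.75, 46.3 and 48.45 and Cidec 18.45, 749.5 and 669.2. As a sign of RNA quality, the 3' signal of beta-actin over its 5' signal was 1.73 ± 0.140 (SD, n = 4) in NC mice, 1.54 ± 0.0694 in MCD+HF mice and 1.73 ± 0.114 with metformin. The same ratio for Gapdh was 0.710 ± 0.0122 in NC mice, 0.699 ± 0.0123 in MCD+HF mice and 0.757 ± 0.0451 with metformin. The part of RNA quality in the results was not tested.

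Upstream sequence was at hand for some of these genes only. It is shown for Vldlr and Lipa, which rose together on the diet, and for Lrp1, which fell. Each run is the 250 bases before the annotated start in RefSeq (GRCm38.p6, used here for names and sequence and not as the build of the arrays), 5' to 3' on the strand of the gene. Vldlr lies on the plus strand at chr19:27216234-27216483 (the upstream of 2 annotated starts), Lipa on the minus strand at chr19:34527475-34527724 and Lrp1 on the minus strand at chr10:127621149-127621398. Capitals mark matches on either strand to the motifs CACGTG (E-box), GGGCGG (GC box), CCAAT and AGGTCA (bound by nuclear receptors).
Vldlr: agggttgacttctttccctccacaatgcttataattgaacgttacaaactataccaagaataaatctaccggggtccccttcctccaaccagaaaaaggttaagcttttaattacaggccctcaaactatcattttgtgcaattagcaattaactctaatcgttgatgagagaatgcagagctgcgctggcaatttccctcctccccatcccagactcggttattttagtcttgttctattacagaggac
Lipa: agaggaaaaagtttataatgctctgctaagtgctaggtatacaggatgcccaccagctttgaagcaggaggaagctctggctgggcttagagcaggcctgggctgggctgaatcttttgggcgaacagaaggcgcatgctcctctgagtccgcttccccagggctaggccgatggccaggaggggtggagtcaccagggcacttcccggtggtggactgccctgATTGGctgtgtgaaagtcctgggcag
Lrp1: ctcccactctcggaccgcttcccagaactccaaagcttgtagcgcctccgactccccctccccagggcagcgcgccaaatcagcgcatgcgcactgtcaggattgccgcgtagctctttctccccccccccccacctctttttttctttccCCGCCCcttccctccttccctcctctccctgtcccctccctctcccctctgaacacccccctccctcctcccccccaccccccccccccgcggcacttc
The Lipa run held a CCAAT match, on the opposite strand at 26 to 22 bases before the start, and 33.8% of 32817 upstream windows of this length held one. The Lrp1 run held a GC box, on the opposite strand at 99 to 94 bases before the start, against 32.7% of windows. None of the 4 motifs matched in the Vldlr run. E-boxes were in 6.02% of windows and AGGTCA in 14% of them.

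On the MCD+HF diet, transcripts of Lpl, Vldlr, Lipa and Gpihbp1 were higher than on normal chow and that of Lrp1 was lower, while Lipg and Angptl4 did not pass the test. That is 4 of 7 genes higher and 1 lower, or 3 higher without Vldlr, which the filter favoured. Over all probe sets tested, 43.8% passed in this comparison, 25.4% higher and 18.4% lower, so a pass was common. The median log2 change of the 7 genes was 0.60, against 0.06 over all probe sets. In each of the 5 genes that passed, the 4 MCD+HF mice did not overlap the 4 NC mice, as was the case for 40.6% of all probe sets. With metformin added, Lpl and Lipa were lower than on the diet alone by limma and no gene was higher, also at an unadjusted p under 0.05 (the methods' t-test gave the same 2 at its unadjusted p, and 0 of 7 after Benjamini-Hochberg adjustment). These 2 of 7 stand against 3.44% of all probe sets that passed, 2.21% lower and 1.24% higher. The median change of the 7 genes was -0.08, against -0.02 over all probe sets. Against normal chow, MCD+HF+Met mice still had 4 genes higher and 1 lower, where 39.7% of all probe sets passed, 22.2% higher and 17.5% lower. Without Vldlr 3 were higher. The groups did not overlap in these 5, Vldlr included, against 34.8% of probe sets. These were the genes that differed on the diet alone, and both comparisons use the NC arrays.

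**Figure D1:**
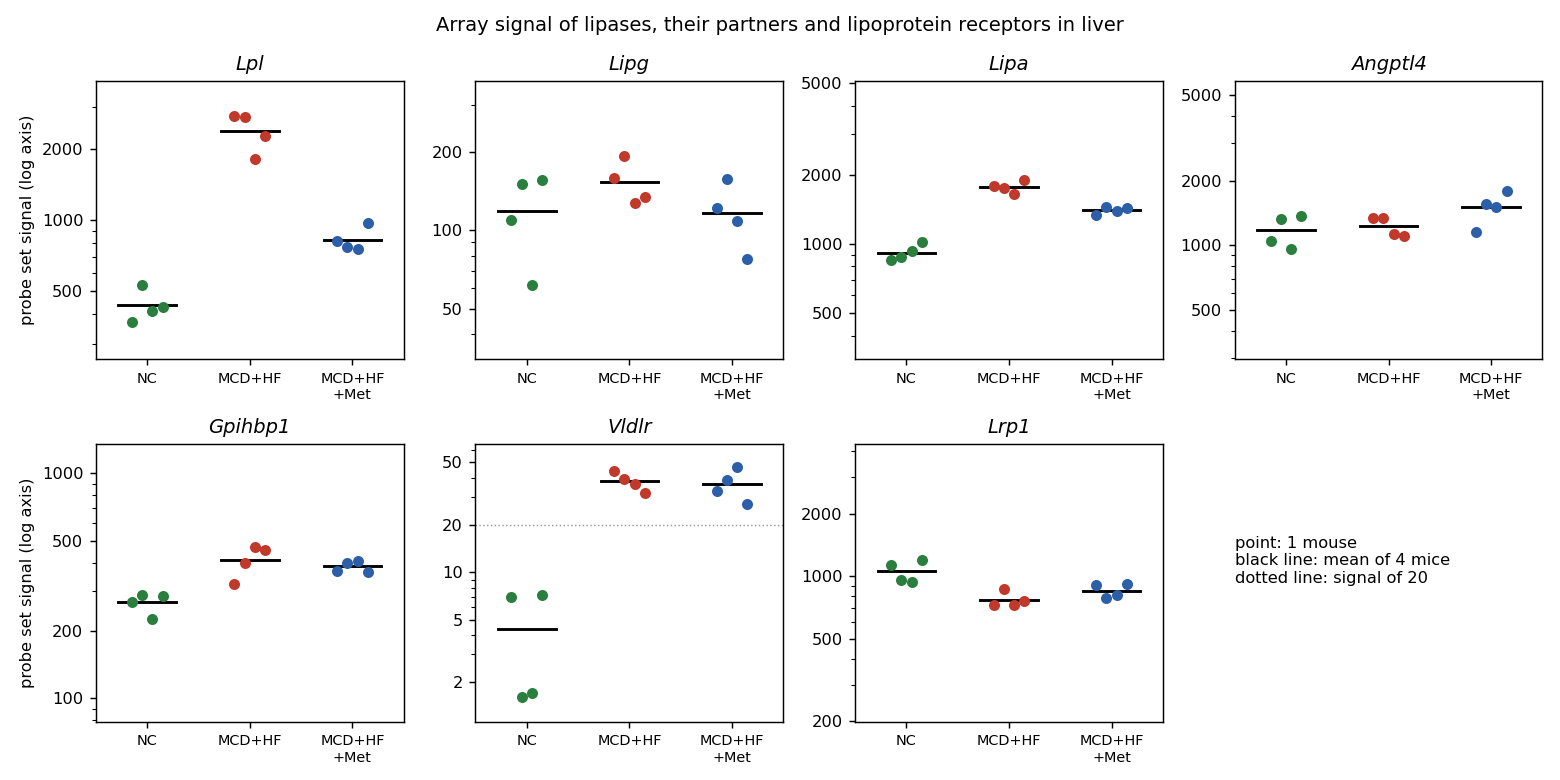
Signal of 7 genes per mouse on log axes, in 3 diet groups; points are mice, black lines are group means (n = 4) and the dotted line in the Vldlr panel is a signal of 20. Lpl is highest in the 4 MCD+HF mice (1813 to 2766), lower in MCD+HF+Met mice (754 to 969) and lowest in NC mice (370 to 534), while Vldlr is under 20 in every NC mouse.

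Among the lipases, Lpl had the widest range between groups. Its signals were 370, 534, 415 and 430 in NC mice 1 to 4, 2766, 2720, 1813 and 2259 in MCD+HF mice, and 815, 769, 754 and 969 in MCD+HF+Met mice. The 3 groups did not overlap, with NC lowest and MCD+HF highest. The mean on the diet was 2389 ± 447 (SD, n = 4), which was 5.46 times the 437 ± 69.2 of NC mice (log2 change 2.42, standard error 0.14, adjusted p = 3.32e-09 from limma). Of the 22832 probe sets, 189 had a larger rise on the diet. With metformin the mean was 827 ± 98.3, or 0.346 times that on the diet alone (log2 change -1.51, standard error 0.14, adjusted p = 9.18e-05). Of all probe sets tested, 32 had a lower value for this change. Lpl thus remained 1.89 times its level on chow (log2 change 0.91, adjusted p = 1.01e-04). The MCD+HF+Met group was also the tighter, with a coefficient of variation of 11.9% against 18.7% in MCD+HF mice.

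A second Lpl probe set, at a lower signal, gave the same order. Its signals were 45.3 to 78.9 in NC, 307 to 547 in MCD+HF and 137 to 148 in metformin-fed mice, again without overlap. The log2 change was 2.63 (adjusted p = 2.82e-08) with the diet and -1.47 (adjusted p = 0.00110) with metformin. The methods' t-test, which the study used unadjusted, called the brighter one too at that threshold. After Benjamini-Hochberg adjustment, added here, it had 0.0832 with that test, which then called 8 of all probe sets, against 4053 unadjusted.

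Some markers of macrophages, which make LPL, moved in the directions of Lpl. Of 12 markers 11 were tested, 7 of them higher and 1 lower on the diet (median log2 change 1.45). Over all probe sets 25.4% were higher and 18.4% lower. With metformin 5 were lower, against 2.21% of all probe sets, and none higher (median -0.52), and the other 6 did not pass. Their summed signals were 3996 to 5068 on chow, 7367 to 10101 on the diet and 3307 to 5849 with metformin. Among them, Lyz2, the lysozyme of macrophages, had mean signals of 407 ± 53.9 (SD, n = 4) in NC mice, 2006 ± 746 on the diet and 688 ± 103 with metformin. Gpnmb, a glycoprotein of lipid-laden macrophages, went from 9.57 ± 5.95 on chow to 1708 ± 744 on the diet and 190 ± 37.9 with metformin (log2 change with metformin -3.01, adjusted p = 9.18e-05). Trem2, a lipid receptor of such cells, had 3.13 ± 1.99, 121 ± 48.7 and 25.9 ± 13.4. Gpnmb and Trem2 were dim on chow and passed the filter only through the mice on the MCD+HF diets. Both are among the 7 higher on the diet and the 5 lower with metformin, and the filter favoured their rise. Csf1r, the receptor of macrophage colony stimulating factor, had 1328 ± 126, 1832 ± 240 and 1127 ± 205. Marco rose on the diet from 56.5 ± 16.0 to 232 ± 242 (adjusted p = 0.0171), with overlap, and was 131 ± 63.2 with metformin. Adgre1 had 189 ± 16.7, 213 ± 37.6 and 146 ± 29.2 in the 3 groups, with no pass in any comparison. Other markers did not follow. Cd14, a coreceptor for bacterial lipopolysaccharide, had 66.9 ± 18.8, 273 ± 25.6 and 339 ± 158, so that its mean was not lower with metformin. Cd5l, a secreted scavenger receptor protein, had 1098 ± 121, 838 ± 182 and 731 ± 277. Clec4f and Vsig4 mark resident Kupffer cells. Clec4f fell on the diet from 509 ± 60.9 to 208 ± 99.5 (adjusted p = 7.70e-04), and Vsig4 had 850 ± 117, 734 ± 274 and 711 ± 371 in the 3 groups with no pass in any comparison. The part of macrophages in the change of Lpl was not tested. In whole liver, more cells of a type and more RNA per cell cannot be told apart.

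**Figure D2:**
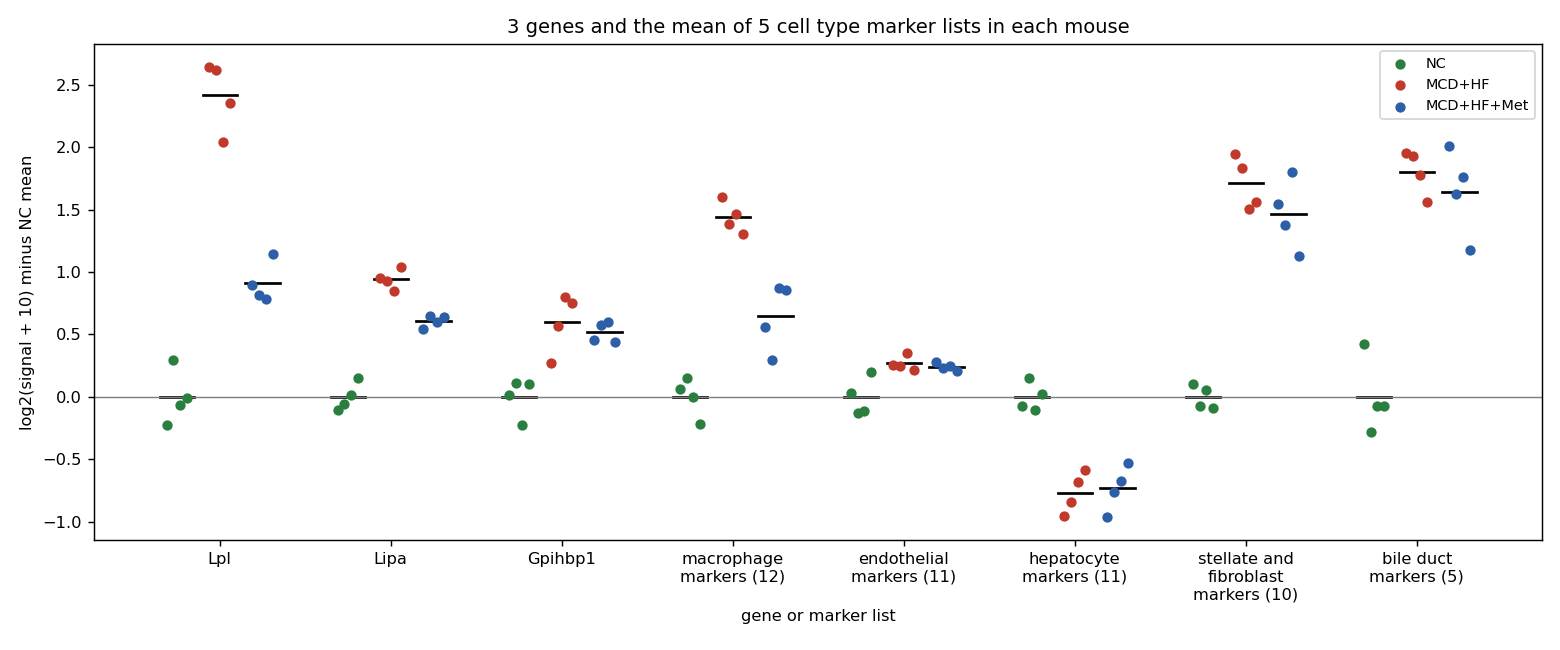
Difference from the NC mean in log2(signal + 10) for 3 genes and for the mean of 5 lists of cell type markers; points are mice, coloured by diet, and black lines are group means (n = 4). The macrophage markers rise to a mean of 1.44 on the diet and lie at 0.64 with metformin, the same order as Lpl, and stellate and fibroblast (1.71 and 1.46) and bile duct markers (1.80 and 1.64) have that order of means too, with overlap between the 2 MCD+HF groups, while in the 2 MCD+HF groups the endothelial (0.27 and 0.24) and the hepatocyte markers (-0.77 and -0.73) have similar means; the fall of the hepatocyte markers is not seen with quantile normalization.

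Lipa, the lysosomal enzyme, also rose on the diet. Its signals were 852, 880, 930 and 1018 in NC mice, 1781, 1753, 1656 and 1902 in MCD+HF mice, and 1340, 1447, 1396 and 1440 in MCD+HF+Met mice. The 3 groups did not overlap, and the spread was small, with coefficients of variation of 5.72% on the diet and 3.49% with metformin. Means were 920 ± 73.0 (SD, n = 4) in NC and 1773 ± 101 in MCD+HF mice, a log2 change of 0.94 (standard error 0.08, adjusted p = 2.33e-07). With metformin the mean was 1405 ± 49.1, a log2 change of -0.33 (standard error 0.08, adjusted p = 0.0376), and it stayed above NC (log2 change 0.61, adjusted p = 2.76e-05). The other 2 Lipa probe sets rose on the diet too, by 0.86 (adjusted p = 6.39e-05) and 1.27 (adjusted p = 2.29e-07). For metformin they had changes of -0.26 (adjusted p = 0.290) and -0.25 (adjusted p = 0.228), which did not pass, and their groups overlapped. The metformin call of Lipa lay near the threshold. It was lost without NC replicate 2 (adjusted p = 0.0512), without MCD+HF replicates 1 (0.0744), 2 (0.0958) or 4 (0.0867), and without MCD+HF+Met replicates 1 (0.0870), 2 (0.0839) or 3 (0.0644), at changes of -0.30 to -0.35.

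Lipg did not pass the test in any comparison on its brightest probe set. Signals were 109, 150, 62.0 and 155 in NC mice, 158, 193, 127 and 134 in MCD+HF mice, and 122, 157, 109 and 77.5 in MCD+HF+Met mice. All 3 groups overlapped, and NC mouse 3 was the lowest of all. The log2 change with the diet was 0.39 (95% interval -0.12 to 0.91, adjusted p = 0.203) and that with metformin -0.39 (95% interval -0.90 to 0.12, adjusted p = 0.406). Without NC replicate 3 the change with the diet was 0.14. A second probe set rose on the diet from 80.7 ± 31.3 to 128 ± 20.2 (log2 change 0.68, adjusted p = 0.0328), with all 4 MCD+HF mice above all NC mice. With metformin that probe set had 83.4 ± 17.7, a log2 change of -0.57 (95% interval -1.08 to -0.05, adjusted p = 0.215). The third was dim, at 1.30 to 28.2 over all mice. Its mean was 15.2 on the diet and 1.625 with metformin, without overlap (adjusted p = 0.0767 from limma without the filter).

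Angptl4, the LPL inhibitor, did not pass the test in any comparison. It had 1046, 1329, 965 and 1363 in NC mice, 1341, 1336, 1127 and 1101 in MCD+HF mice, and 1159, 1550, 1513 and 1780 in MCD+HF+Met mice. The groups overlapped in every comparison, and 3 of the 4 MCD+HF+Met mice lay above every other mouse. The log2 change was 0.07 with the diet (95% interval -0.22 to 0.36, adjusted p = 0.714), 0.28 with metformin (-0.02 to 0.57, adjusted p = 0.290) and 0.35 between MCD+HF+Met and NC mice (0.05 to 0.64, adjusted p = 0.0567). The last passed with quantile normalization (adjusted p = 0.0187). It also passed without NC replicates 2 (0.0450) or 4 (0.0321) and without MCD+HF+Met replicate 1 (0.0125), the low mouse of its group, at changes of 0.41 to 0.47. Its other probe set was dim in most mice, at 1.00 to 21.6.

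Gpihbp1, which carries LPL to the capillary lumen, rose modestly on the diet and stayed there with metformin. Signals were 269, 288, 226 and 286 in NC mice, 323, 398, 472 and 456 in MCD+HF mice, and 369, 401, 407 and 365 in MCD+HF+Met mice. Every mouse on the MCD+HF diet, with or without metformin, lay above every NC mouse, and the 2 MCD+HF groups overlapped. The mean went from 267 ± 28.9 (SD, n = 4) in NC to 412 ± 67.4 in MCD+HF mice (log2 change 0.60, standard error 0.12, adjusted p = 9.05e-04) and was 386 ± 21.7 with metformin. The change with metformin was -0.08 (95% interval -0.34 to 0.18, adjusted p = 0.774). MCD+HF+Met remained above NC (log2 change 0.52, adjusted p = 0.00315). A single probe set named Gpihbp1.

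Because GPIHBP1 is a protein of capillary endothelium, endothelial markers were read beside it. Of 11, 4 were higher and 3 lower on the diet (median log2 change 0.25), against 25.4% and 18.4% of all probe sets. With metformin 0 passed by limma (median 0.04) or by the methods' t-test after adjustment, with 1 higher and 2 lower at an unadjusted p under 0.05. Their summed signals were 1672 to 2067 in NC mice, 2040 to 2291 in MCD+HF mice and 2124 to 2324 with metformin. Plvap, of the diaphragms of fenestrated vessels, rose from 165 ± 41.3 to 309 ± 28.6 (adjusted p = 3.10e-04) on the diet. Stab2, a scavenger receptor of liver sinusoids, fell from 309 ± 24.9 to 252 ± 21.3 (adjusted p = 0.0317). Lyve1 rose on the diet (log2 change 1.02, adjusted p = 2.32e-04), and Clec4g, the brightest marker of this list, did not pass (log2 change 0.01, adjusted p = 0.947). Their part in the change of Gpihbp1 was not tested.

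Vldlr went from dim on chow to measurable on the diet. Signals were 7.0, 1.6, 1.7 and 7.2 in NC mice, 44.2, 39.2, 36.5 and 31.8 in MCD+HF mice, and 33.1, 38.9, 47.0 and 27.3 in MCD+HF+Met mice. Every NC mouse was under 20 and every other mouse above it, and the MCD+HF and MCD+HF+Met mice overlapped. The log2 change was 1.76 with the diet (standard error 0.20, adjusted p = 3.12e-06) and 1.70 between MCD+HF+Met and NC mice (adjusted p = 5.45e-06). As the NC signals are dim, the size depends on the offset, and was 3.46 with an offset of 0 and 0.94 with an offset of 32. The change with metformin was -0.05 (95% interval -0.47 to 0.36, adjusted p = 0.918).

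The other 2 tested Vldlr probe sets also rose on the diet. The cross-hybridising one was brighter, at 7.0 to 33.2 in NC, 130 to 158 in MCD+HF and 83.2 to 139 in metformin-fed mice, with log2 changes of 2.60 with the diet (adjusted p = 2.19e-07) and -0.46 with metformin (95% interval -0.94 to 0.02, adjusted p = 0.283). Another rose from 5.33 ± 3.64 to 30.3 ± 6.71 (log2 change 1.41, adjusted p = 5.43e-05), with a mean of 20.6 over all mice. The NC mean of the cross-hybridising one was 17.55. Both were thus dim on chow and, as the main probe set, passed the filter only through the mice on the MCD+HF diets. The remaining 3 had mean signals under 20 and were not in the test. In each of the 6 the mean was higher in MCD+HF than in NC mice. With metformin each of the 6 means was lower than in MCD+HF mice, and none of the tested probe sets passed. The third tested one had a change of -0.15 (adjusted p = 0.7475). A dim one went from 32.25 ± 6.12 to 18.1 ± 5.50 without overlap (log2 change -0.60, adjusted p = 0.237 from limma without the filter).

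Lrp1, the remnant receptor, was the gene of the set that fell on the diet. Signals were 1137, 963, 937 and 1196 in NC mice, 726, 865, 722 and 760 in MCD+HF mice, and 901, 781, 811 and 914 in MCD+HF+Met mice. Every NC mouse lay above every mouse of both other groups, which overlapped each other. The mean fell from 1058 ± 128 (SD, n = 4) to 768 ± 67.0 (log2 change -0.45, standard error 0.10, adjusted p = 0.00204). It was 852 ± 65.9 with metformin, a change from the diet alone of 0.15 (95% interval -0.07 to 0.37, adjusted p = 0.462). Against NC, MCD+HF+Met mice were lower by a log2 change of -0.31 (adjusted p = 0.0266), a call lost without NC replicates 1 (0.0769) or 4 (0.0817) and without MCD+HF+Met replicates 2 (0.0805) or 3 (0.0639). A dimmer Lrp1 probe set, at 55.6 to 216 over all mice, had a change of -0.24 with the diet (adjusted p = 0.484). The change with the diet was called under every alternative on the brighter probe set, from -0.39 to -0.51 with 1 array left out. The part in it of the lower hepatocyte markers on the diet was not tested.

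**Figure D3:**
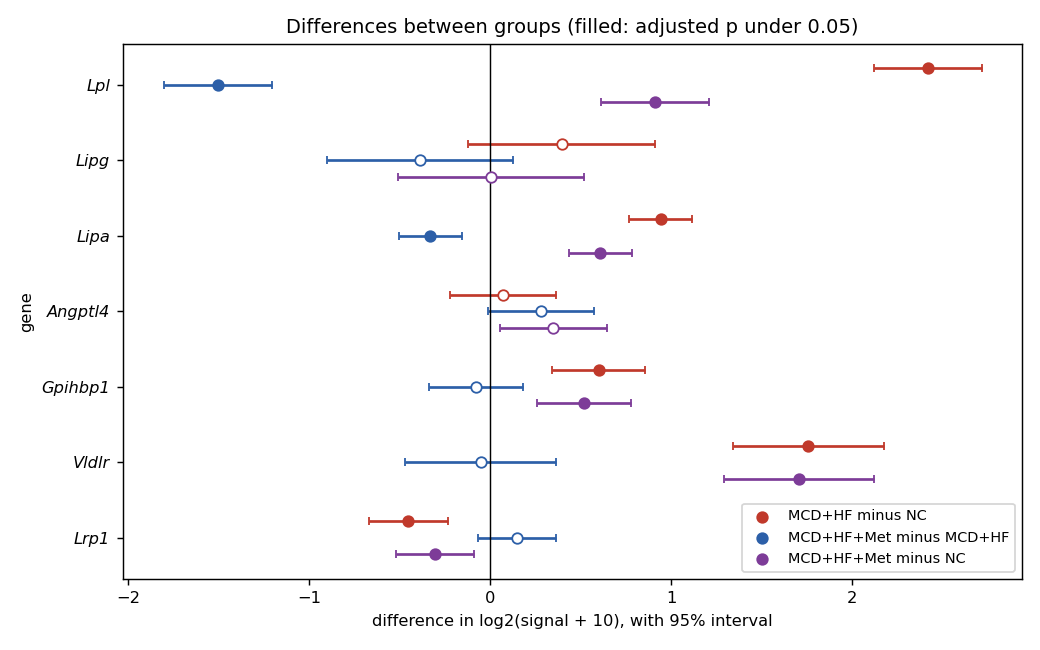
Difference in log2(signal + 10) for each gene in 3 comparisons, as the point with its 95% interval from limma; filled points have an adjusted p under 0.05. Lpl moves up by 2.42 with the diet and by -1.51 with metformin, whereas the intervals of Gpihbp1, Vldlr, Angptl4 and Lrp1 for metformin include 0.

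**Figure D4:**
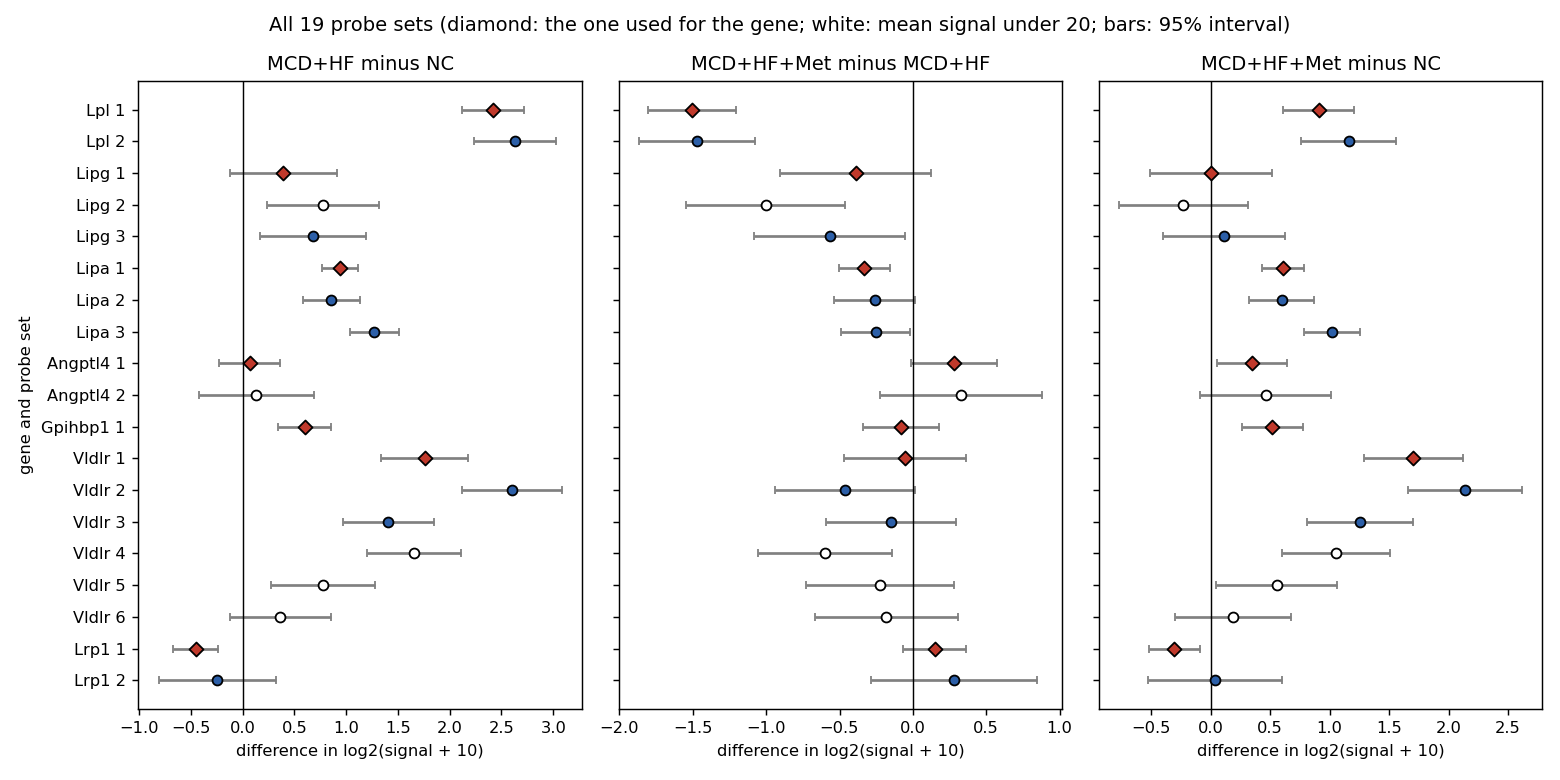
The same differences for all 19 probe sets of the 7 genes, numbered within a gene; diamonds are those used for the gene, circles the others, white ones with a mean signal under 20 fitted without a filter, and bars are 95% intervals. Both Lpl probe sets, the 3 of Lipa and the 6 of Vldlr lie above 0 for MCD+HF minus NC, and in the metformin comparison only Lpl lies beyond -1 on probe sets that are not dim.

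The other genes of the pathway came from 4 lists of 36 genes in all, of which 29 had a probe set and 28 were tested. On the diet 4 were higher and 13 lower, 60.7% of those tested against 43.8% of all probe sets, with a median log2 change of -0.26. With quantile normalization 5 were higher and 9 lower (median -0.17). With metformin 2 were higher and 2 lower, 14.3% against 3.44% (median 0.10). Between MCD+HF+Met and NC mice 6 were higher and 9 lower, 53.6% against 39.7% (median -0.10). With quantile normalization 7 were higher and 7 lower in that comparison.

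Genes that help or hinder the lipases mostly fell on the diet. Of 10 tested, 7 fell and 1 rose, or 5 and 2 with quantile normalization. Over all probe sets tested, 18.4% fell and 25.4% rose. Lmf1, which LPL needs to fold, had a signal of 188 ± 35.2 (SD, n = 4) on chow, 63.4 ± 23.5 on the diet and 66.0 ± 8.63 with metformin. Its diet change was -1.47 (adjusted p = 2.28e-05). It thus fell where Lpl rose, and its change with metformin was 0.10 (adjusted p = 0.837). Apoc2, the activator of LPL, rose from 2188 ± 97.3 to 4454 ± 475 (log2 change 1.02, adjusted p = 1.34e-06) and was 4398 ± 684 with metformin. Apoc3, an inhibitor of lipolysis, fell from 12116 ± 819 to 6344 ± 449 (log2 change -0.93, adjusted p = 1.19e-07), as did Apoc1 (-0.94, adjusted p = 1.45e-07) and the proprotein convertase gene Pcsk6 (-0.78, adjusted p = 9.19e-05). With quantile normalization the change of Apoc3 was -0.15 and not called (adjusted p = 0.0544), and that of Apoc1 was -0.21 (adjusted p = 0.00635). Apoa5, which favours lipolysis, was 8212 ± 711 on chow, 6147 ± 331 on the diet and 8045 ± 414 with metformin. Its diet change of -0.41 (adjusted p = 5.96e-04) turned to 0.24 (adjusted p = 0.0161) with quantile normalization, so its direction on the diet depends on the scaling. With metformin it rose by 0.39 (standard error 0.08, adjusted p = 0.0160), a call lost without MCD+HF replicate 2 (0.0635) and with quantile normalization (0.0539). The same call was lost with no filter (0.0631) and the methods' t-test after adjustment (0.0933). Angptl8, an inhibitor induced by feeding, fell on the diet by 0.97 on the log2 scale (adjusted p = 0.0387), with NC mice at 109 to 272 and MCD+HF mice at 38.5 to 113. That call was lost without NC replicates 2 (0.108) or 3 (0.119) and without MCD+HF replicate 3 (0.138). It was also lost with no filter (0.0596), a robust variance (0.079) and the methods' t-test after adjustment (0.135).

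Among 8 genes of lipoprotein receptors and uptake, 2 rose on the diet and 1 fell, the latter not with quantile normalization. That is 37.5% called, near the 43.8% of all probe sets. Cd36, the fatty acid translocase, went from 330 ± 43.4 to 2851 ± 117 (log2 change 3.08, adjusted p = 1.23e-11). At 1948 ± 241 with metformin it had dropped by 0.55 in log2(signal + 10), adjusted p = 0.00986, and so it moved in the direction of Lpl in both comparisons. Sorl1, a sorting receptor that also binds lipoproteins, rose from 24.2 ± 15.2 to 103 ± 23.5 (adjusted p = 1.74e-05). Apoe, the ligand of remnant receptors, fell by 0.90 (adjusted p = 2.24e-07), but had 0.11 (adjusted p = 0.0872) with quantile normalization. Scarb1, the receptor of high density lipoproteins, had log2 changes of -0.19 (adjusted p = 0.135) and 0.22 (adjusted p = 0.236) with the diet and with metformin. Sdc1, a heparan sulfate proteoglycan that takes up remnants, was higher in MCD+HF+Met than in NC mice (log2 change 0.49, adjusted p = 0.0128), with 0.46 (adjusted p = 0.0883) against the diet alone.

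Of 6 genes that handle lysosomal and cellular cholesterol, 1 rose and 2 fell on the diet. That is 50% called, near the 43.8% of all probe sets. Npc2, the carrier that takes up the cholesterol set free in lysosomes, moved as Lipa did, with 867 ± 73.4 on chow, 1576 ± 108 on the diet and 1164 ± 66.8 with metformin. Its log2 change was 0.86 with the diet (adjusted p = 1.27e-06) and -0.43 with metformin (adjusted p = 0.0145), the latter call lost without MCD+HF replicate 2 (0.0590) or MCD+HF+Met replicate 2 (0.0561). Its membrane partner Npc1 had -0.30 (adjusted p = 0.0632) and 0.02 (adjusted p = 0.962). Scarb2, a lysosomal membrane protein, fell by 0.36 (adjusted p = 0.00439) and Abca1, the cholesterol exporter, by 0.54 (adjusted p = 0.00103) on the diet. With quantile normalization Scarb2 was not called (-0.05, adjusted p = 0.703) and Abca1 had -0.32 (adjusted p = 0.0381).

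Of 4 tested genes for nuclear receptors that act on lipase genes, 3 fell on the diet, and with metformin 1 rose. Over all probe sets, 18.4% fell on the diet and 1.24% rose with metformin. Ppara fell by 0.54 (adjusted p = 0.00761), Nr1h3 by 0.66 (adjusted p = 0.00148) and Rxra by 0.49 (adjusted p = 0.0331). With quantile normalization Ppara was not called (-0.21, adjusted p = 0.260). The call of Rxra was lost without NC replicates 1 (0.0974) or 4 (0.109) or MCD+HF replicates 1 (0.0582), 2 (0.0850) or 3 (0.0744). It was also lost with no filter (0.0502) and the methods' t-test after adjustment (0.109). Pparg had signals of 37.8 to 60.1 on chow, 41.7 to 72.5 on the diet and 86.9 to 127 with metformin, the last above all others. It rose with metformin (log2 change 0.70, adjusted p = 0.0390), where Lpl fell. That call was lost without MCD+HF replicates 1 (0.0596), 2 (0.125) or 4 (0.0730) and without MCD+HF+Met replicates 1 (0.103), 2 (0.0731) or 3 (0.0692). It was also lost with an offset of 0 (0.0509), no filter (0.0764) and the methods' t-test after adjustment (0.155).

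**Figure D5:**
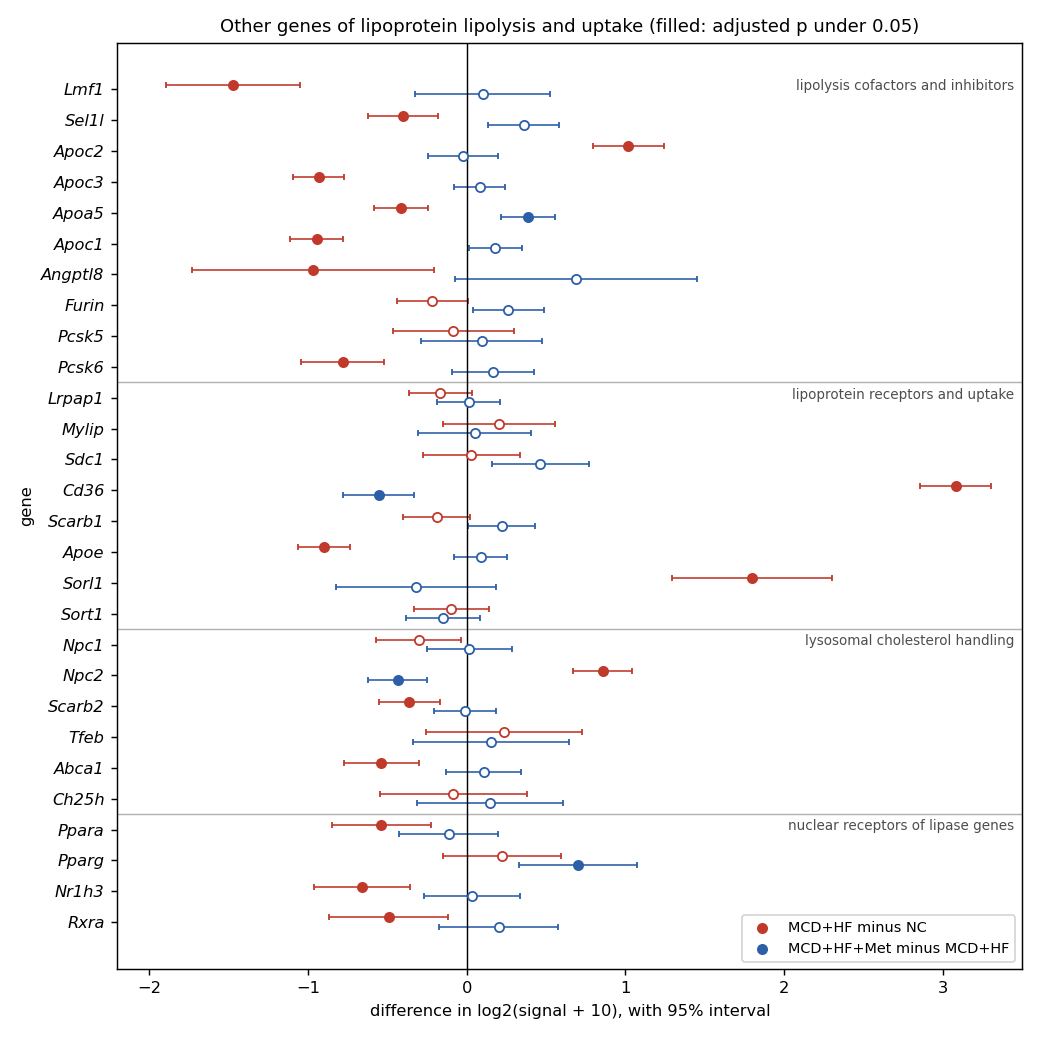
Difference in log2(signal + 10), with its 95% interval, for the 28 other genes tested, grouped by list, with the diet (red) and with metformin on the diet (blue); filled points have an adjusted p under 0.05. Cd36 (3.08) and Sorl1 (1.80) rise most with the diet and Lmf1 (-1.47) falls most, while with metformin Apoa5 and Pparg pass upward and Cd36 and Npc2 downward; with quantile normalization the diet changes of Apoa5 and Apoe turn sign.

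Genes whose profile was most like that of a member were sought among 11092 genes of mean signal at least 20. The measure was the root mean square difference over the 12 arrays in log2(signal + 10) after the NC mean was subtracted. For Lpl these were Glipr1 (0.22), Cd68 (0.26), a lysosomal glycoprotein that marks macrophages, and Myof (0.28), which codes for the membrane protein myoferlin. Cd68 had signals of 82.8 ± 8.66 on chow, 479 ± 143 on the diet and 189 ± 59.1 with metformin, and was also on the macrophage list. For Lipa they were Rsad1 (0.12), Psap (0.13), the precursor of the saposins of lysosomes, and Spry2 (0.13). Psap had 1958 ± 120 on chow, 3702 ± 439 on the diet and 2824 ± 241 with metformin. Vldlr was nearest to Tmem47 (0.16), Trim47 (0.18) and Bgn (0.19), the gene of the matrix proteoglycan biglycan. Gpihbp1 was nearest to Immt (0.10), Bcl2l13 (0.11) and Psmd3 (0.12), and Lrp1 to Lrrc42 (0.10), Pcnp (0.11) and Asb8 (0.11). Angptl4 was nearest to Pofut1 (0.15), Dhx37 (0.16) and Nfic (0.16), and Lipg to Per1 (0.24), Setd5 (0.25) and Zfp263 (0.26).

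Other cell types moved as follows beside these genes. Of 10 stellate cell and fibroblast markers, 9 were higher on the diet, against 25.4% of all probe sets, and 3 were lower with metformin, against 2.21%. Their summed signals were 2187 to 2973, 7753 to 9774 and 5540 to 8217 in NC, MCD+HF and MCD+HF+Met mice. Of these, Col1a1, with an NC mean of 17.1, passed the filter only through the mice on the MCD+HF diets. All 4 tested markers of bile duct cells and all 3 of neutrophils were higher on the diet, against 25.4% of all probe sets. The bile duct markers Krt19, Krt7, Epcam and Sox9 had NC means of 8.575, 13.925, 6.325 and 12.25. They thus passed the filter only through the mice on the MCD+HF diets, and the filter favoured a rise. With metformin 0 of the markers of both cell types passed by limma, at an unadjusted p under 0.05 or by the methods' t-test after adjustment. The 7 lymphocyte markers with a probe set were dim, with sums of 65.8 to 109, 69.0 to 105 and 58.3 to 66.2. Of 5 fat cell markers 2 were tested and 1 rose on the diet, Cidec, which fatty hepatocytes also express, from 18.4 ± 7.21 to 750 ± 90.0. Dim on chow, Cidec too passed the filter only through the mice on the MCD+HF diets. The part of these cell types in the changes of the lipase genes was not tested.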

How the data were processed

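Liver RNA of 12 mice was hybridised by the authors to Affymetrix Mouse Genome arrays, 1 per mouse. From each array the authors derived a signal intensity for every probe set in GCOS, scaled so that the array averaged 100, and deposited those linear intensities. A mean taken without the highest and lowest 2% of probe sets was 100.0 in every array. GCOS detection and change calls were not used here. The genome build is not given in the sources used here.

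Groups and replicate numbers came from the sample labels. Without the 64 control probe sets, log2(signal + 10) was modelled for the 22832 probe sets averaging 20 or more over all arrays. Both limma (3.58.1, in R 4.3.3) steps, lmFit and then eBayes using a trend, took the 3 groups in 1 model, with Benjamini-Hochberg adjustment over all probe sets. The script was tested on simulated data. Platform annotation named 34945 probe sets with 1 gene, 932 with several and 9160 with none, and 34741 of the first kind took their current symbol by gene identifier. The genes named are the members, 7 pathway genes named in advance where measured, up to 4 called pathway genes per direction and comparison, the brightest markers and any macrophage marker, and the 3 genes nearest to each member in profile. Not all of these are described. The members and lists were chosen with earlier results of these data known. Some genes of the lists are not analysed here. Alternatives were offsets of 0 (signals under 1 set to 1) and 32, no filter, a mean signal of at least 50.0, quantile normalization, the replicate block, a robust variance, only the groups compared, omission of each array in turn, other probe sets and the methods' t-test with Benjamini-Hochberg adjustment, which the study did not use. The study's own threshold for that test, an unadjusted p under 0.05, was added after seeing the data, without the GCOS change calls that went with it. Plots used matplotlib 3.10.9 (Python 3.11.15).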

Additional observations from a re-analysis of the deposited data

How the results depend on the processing

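With metformin, 2 of 7 genes of the set and 4 of 28 pathway genes passed. Without a filter on dim probe sets these were 1 and 2, in a model of only the groups compared the set had 1, and with the methods' t-test after Benjamini-Hochberg adjustment, which the study did not apply, both had 0 (limma called 2 and 4). At the unadjusted p under 0.05 of the methods, a setting chosen after seeing the data, that test called 2 and 7, and 1 and 1 with a difference over 1.5-fold as well. With 1 array left out the set had 1 to 2 and the pathway 1 to 4, the latter at 1 without MCD+HF replicate 2 and at 2 without MCD+HF+Met replicate 2. Over all probe sets, the 786 called with metformin became 476 with no filter, 8 with the adjusted and 4053 with the unadjusted t-test, 254 without MCD+HF replicate 2 and 297 without MCD+HF+Met replicate 2. The cause was not tested. In the other comparisons the counts of the set were 4 to 5 with the diet and 4 to 6 between MCD+HF+Met and NC.

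Of 459 values of the 7 genes under alternatives, 422 kept their direction and side of the threshold, 20 lost a call, 6 gained one and 11 changed sign. None of those that changed sign passed in the setting where it did so, and the cause was not tested. Angptl4 with the diet turned to -0.0192 without NC replicate 3 (up to 0.145 with another array left out). Vldlr with metformin turned to 0.0240 with quantile normalization and ranged from -0.16 to 0.0484 with 1 array left out. Lipg between MCD+HF+Met and NC, at 0.00, turned to -0.0027 with an offset of 32 and -0.0725 with quantile normalization, with -0.25 to 0.17 when 1 array was left out. Lrp1 in that comparison was 0.0361 on its other probe set, and its call was lost with quantile normalization (adjusted p = 0.0520) and the methods' t-test after adjustment (0.0709). The call of Lipa with metformin was lost with no filter (0.0696), only the groups compared (0.0536) and the methods' t-test after adjustment (0.0943), in a range of 0.0085 to 0.290. Among called pathway genes, quantile normalization turned Apoa5 with the diet to 0.24 (adjusted p = 0.0161) and Apoe to 0.107 with the diet and 0.0558 between MCD+HF+Met and NC.

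The replicate numbers name different mice. Deviations of arrays with the same number correlated from -0.13 to 0.25 over 12 pairs, with 2 above 0.1, and 4 of 12 arrays correlated best with their own number. With the replicate number as a block, 5, 2 and 6 of the 7 genes passed in the comparisons of MCD+HF with NC, MCD+HF+Met with MCD+HF and MCD+HF+Met with NC, Angptl4 being added in the last (adjusted p = 0.0469), and 17, 4 and 15 of the pathway genes. Values of dim probe sets, such as Vldlr on chow, are limited by background.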
